A study of Mus musculus with 2 samples.

Results

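The junctions described here join a known splice site to a splice site that the older gene annotation of the mouse does not hold. They were taken from the deposited list of splice junctions on mm9, which holds 1024689 junctions. Chosen were junctions without the list's annotation flag (A = 0), with its flag C set to 1, with a reproducibility score of at most 0.01, and with exactly 1 end on an exon boundary of the ENSEMBL mm9 exons of the same strand. The beta-globin region on chromosome 7 and the alpha-globin region on chromosome 11 were left out. This rule found 10377 junctions, of which 5228 had a new 5′ splice site and 5149 a new 3′ splice site. They are 8.44% of the 122887 junctions that meet the rule apart from the score.

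The RNA came from livers of C57BL/6J mouse embryos at day 14, the age on the labels, from male and female littermates that were pooled. It was polyadenylated and depleted of ribosomal RNA, and was sequenced as paired reads that keep the strand. The 2 libraries, which the labels number as replicates 1 and 2 and give the same donor entry, form 1 group, so their spread may be technical and no test between groups exists. Markers of the tissue were present, with 6698 and 7790 TPM in replicates 1 and 2 for Afp, the fetal alpha-fetoprotein of hepatocytes, and 847 and 941 TPM for Alas2, which starts heme synthesis in red cell precursors. In such bulk tissue, fewer cells of a type and less RNA per cell cannot be told apart.

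A splice site is the border of an intron: the spliceosome recognises the 5′ site, almost always the letters GT, at the start of the intron, and the 3′ site, almost always AG after a stretch rich in pyrimidines, at its end. Where a known 5′ or 3′ site has a competitor nearby, the exon becomes longer or shorter. AG pairs that lie a codon apart, known as NAGNAG acceptors, add or remove a single codon without moving the reading frame. The liver at this stage makes blood, so its polyadenylated RNA holds transcripts of red cell precursors beside those of hepatocytes.

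The sequences below are shown because many new and known sites lie only a few bases apart. They are first or last bases of annotated exons, read from the GENCODE M21 transcripts of the same gene (GRCm38), and the coordinates are those of the new intron on mm9. For new 3′ sites each line starts at the known start of the exon, and the capitals are the bases that the new junction leaves out. The first lines are the most-read junctions with 3 bases left out, with the 4 possible bases before the AG, and were chosen after the values were seen in part.

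Rpl22l1, chr3:28704466-28705424, plus strand: CAGaaagacaagaagcctaagaagtcca

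6030468B19Rik, chr11:117667398-117667521, plus strand: CAGaggcccgagccaagctggtgaccac

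Fau, chr19:6058002-6058245, plus strand: TAGccaacatgcagctctttgtccgcgc

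Rbm8a, chr3:96434285-96434402, plus strand: AAGaggggtcccgagcgcggatgcggga

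Uchl5, chr1:145645624-145647053, plus strand: GAGgaacccatggatacagatcaaggta

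Bex4, chrX:132674139-132674396, plus strand: GAGtgatggcatccaaatttaaacaagt

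H19, chr7:149762649-149762733, minus strand: CCAGgtctccagcagaggtggatgtgcc

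Mlf2, chr6:124885464-124885640, plus strand: GCTCATCTTTCCTTCCTCCAGgtgcagg

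For new 5′ sites each line ends at the downstream one of the 2 competing sites, and the capitals are the bases between them. The junction leaves these bases out in Srsf7, U2surp, Ddx46 and Rplp2, and adds them to the known exon in Prkcsh and Gtf3c6.

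Srsf7, chr17:80602085-80603470, minus strand: gttctataataggatcgagGTATTTCCA

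U2surp, chr9:95391593-95391686, minus strand: ccttcaagaagaaatagatcgtctgGTG

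Ddx46, chr13:55775476-55777256, plus strand: gaagaacctgggcatcgagtctcagGTA

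Rplp2, chr7:148633588-148633806, plus strand: acgcgtgagGTCTGTCCCCCGCAGCCGA

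Prkcsh, chr9:21807537-21807842, plus strand: tattgacctttgcctctacctcgcGTAG

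Gtf3c6, chr10:39977100-39977381, minus strand: ggaggaggaagaggagctagaggagGTT

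Every new 3′ line ends its capitals in AG, and every new 5′ line starts its capitals in GT. In Prkcsh and Gtf3c6 this GT is that of the known site, and the letters of the new site were not read. Where a new site fell inside a known exon whose letters could be read, all 1864 new 3′ sites had AG and all 913 new 5′ sites had GT. Of junctions of this kind without the C flag and at or under the same score, 5 of 45 had AG and 0 of 76 had GT, and 30 of those 76 had GC. Flag C thus follows the canonical letters, and the letters of the members were fixed by the rule.

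Most of these junctions carried few reads. The list held 80752918 junction reads in replicate 1 and 114217023 in replicate 2, with the globin regions included. Outside those regions the new-site junctions held 306237 and 486477 reads, which is 0.697% and 0.692% of the reads there. Their median was 28 reads over both libraries, with a range of 11 to 17787. The score itself follows the reads, so these values describe the choice and are no finding.

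The limit of the score cut through a continuous range. At the last score inside it, 0.009, 880 junctions had a median of 14 reads, and at the first score outside, 0.011, 1076 junctions had a median of 13 reads. Just inside stood a new 5′ site in Mob2 with 3 and 26 reads in replicates 1 and 2, one in Trmt1l with 16 and 11 reads, and a new 3′ site in Acbd3 with 12 and 14 reads. Just outside stood junctions of Rps3 with 18 and 28 reads, of AI662270 with 7 and 22 reads, and of Nrbf2 with 4 and 24 reads. Another 112510 junctions of the same kind lay above the limit, with a median of 2 reads, and they serve as the comparison below.

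How much a new site was used was measured as its share of all listed reads that leave or enter the same known site. The median share was 4.59% in replicate 1 and 4.56% in replicate 2. It was under 5% in both libraries for 4900 junctions, over 50% in both for 657, and over 90% in both for 159. The new site was thus a minor alternative at most known sites, and the main one at the 657. Among the 7924 junctions whose known site had at least 100 reads in each library, the share differed between the libraries by a median of 0.744 percentage points, by over 10 points for 74 and by over 20 points for 2.

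The most-read new 5′ sites lay in genes of varied roles. Alad, the second enzyme of heme synthesis, had 5573 and 9454 reads in replicates 1 and 2 on a junction of 2353 bases, against 990 and 1684 reads on all other junctions of the same 3′ site. The new site took 84.9 ± 0.0246% of that site's reads (SD, n = 2). It lay 2540 bases from the nearest known 5′ site, inside an annotated intron.

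Dpy30, a subunit of the histone H3 lysine methyltransferase complexes, had 2209 and 3564 reads on its new junction and 16 and 44 reads on the others. Ndufs8, an iron-sulfur subunit of respiratory complex I, had 2050 and 3497 reads against 154 and 275. Xpo7, a nuclear transport receptor that is high in late red cell precursors, had 1627 and 3376 reads against 82 and 143. In these 3 genes the new 5′ site held 99.0 ± 0.354%, 92.9 ± 0.214% and 95.6 ± 0.519% of the reads. All other junctions of the same 3′ site together, annotated or not, were thus rare in both libraries.

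Kel, the Kell blood group endopeptidase of red cells, held 19 of these junctions, more than any other gene with a symbol but Rnf123, which also held 19. Its most-read new 5′ site extends the known exon by 20 bases and had 1653 and 3300 reads, or 44.4% and 47.6% of the reads of its 3′ site. A site 10 bases beyond another known exon had 1249 and 2124 reads, or 30.5% and 33.8%. One that lies 4 bases beyond a known exon had 409 and 639 reads, or 14.99% and 12.4%. New 3′ sites in Kel included 1 that shortens an exon by 3 bases, with 701 and 1334 reads (15.6% and 15.7%), and 1 that lengthens an exon by 16 bases, with 338 and 630 reads (21.05% and 21.4%). None of the 19 was matched in the newer annotation. The other Kel junctions reached at most 7.22% in either library.

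Srsf7, an SR protein that itself guides splice site choice, used a 5′ site 9 bases inside the known exon, which removes the GTATTTCCA shown above. It had 1802 and 2810 reads there, against 1451 and 2051 on all other junctions of the 3′ site, so that the shorter exon held 55.4% and 57.8%. The new junction and all others of that 3′ site together thus had similar amounts of reads in both libraries.

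The most-read new 3′ sites were also in genes of varied roles. Serbp1, an mRNA-binding protein found on ribosomes, had one that leaves out 45 bases, with 5218 and 7298 reads against 1054 and 1401 reads on the other junctions of its 5′ site, a share of 83.5 ± 0.495%. That length is a whole number of codons.

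Prpf19, a ubiquitin ligase of the spliceosome, had 2986 and 4685 reads on a 3′ site that leaves out 57 bases, against 160 and 264 on the others, a share of 94.8 ± 0.176%. Rpl22l1, a ribosomal protein related to Rpl22, had 2792 and 4503 reads on a site 3 bases inside the exon, against 29 and 50, a share of 98.9 ± 0.0496%. At both genes nearly all reads used the site that the older annotation lacks.

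H19, an imprinted non-coding RNA of fetal tissues, shows the other end of the range. Its new 3′ site, 4 bases inside the exon, had 1370 and 1995 reads, but 65230 and 89662 reads went to other junctions of the same 5′ site, and its share was 2.06% and 2.18%. The gene stood at 2900.2 and 2824 TPM.

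**Figure D1:**
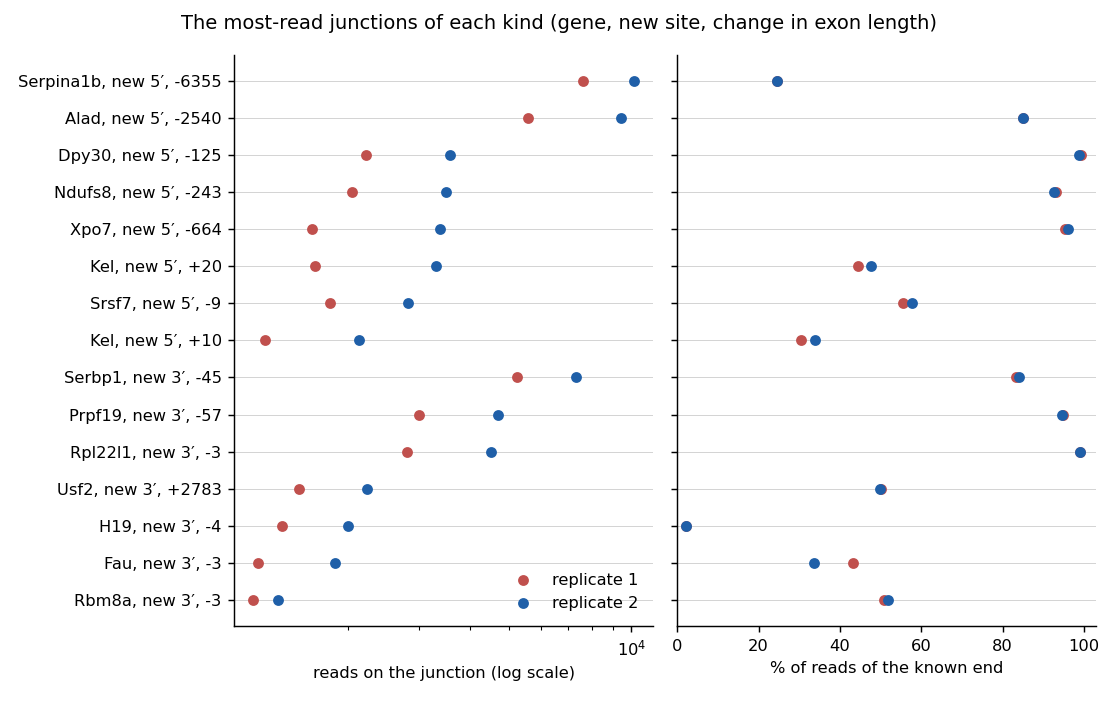
Reads on the junction (left, log scale) and share of the reads of the known site (right, %) in replicate 1 (red) and replicate 2 (blue) for the most-read junctions with a new 5′ site (upper rows) and a new 3′ site (lower rows). The number after each gene is the change in exon length in bases; replicate 2 has more reads throughout, while the shares of the libraries lie close together, with the widest gap at Fau, 43.3% and 33.5%.

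A few of the most-read junctions are uncertain. The highest count of all, 7609 and 10178 reads, was on a junction of 95378 bases counted to Serpina1b, in a cluster of closely related antitrypsin genes that share sequence. Its reads were within 1% of those of another junction of the same known site in both libraries. The same held for Usf2, a transcription factor gene, where a junction of 20000 bases had 1516 and 2231 reads and all others of its site together had 1516 and 2239. Of 1341 junctions with at least 100 reads, 32 had such a partner at their known site and 1 had the same counts as another junction of the same length. Reads from near-identical copies could be counted this way, and whether they were was not tested.

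The highest shares, at known sites with at least 100 reads in each library, came near 100%. Rab10os, an antisense RNA gene, had all 242 and 278 reads of its known site on a new 5′ site in the sequence before the annotated gene. Specc1 had 2 junctions from the same new 5′ site, 27 bases inside the known exon, with 212 and 222 reads to one 3′ site and 296 and 472 reads to another. The only read on any other junction of those 2 known sites was 1 read in replicate 2. These 2 junctions share a 5′ site and are not independent.

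Qsox1, a sulfhydryl oxidase of the secretory pathway, had 270 and 342 reads on a site that extends an exon by 201 bases, against 0 and 2 reads. Rnf4, a SUMO-targeted ubiquitin ligase, had 673 and 994 reads against 4 and 8, and the helicase gene Ddx11 had 107 and 151 against 1 and 0. Among new 3′ sites, Mlf2 had 913 and 1414 reads on a site 21 bases inside the exon against 32 and 66, and the Janus kinase gene Tyk2 had 99 and 121 on a site 69 bases inside against 2 and 4. Pisd-ps2, Fam49b and Gm8113 had shares from 96.0% to 100% in the 2 libraries. Pisd-ps2 is named as a pseudogene of Pisd, so its reads could belong to a related copy.

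Distance from the known site separated the 2 kinds. Of new 3′ sites, 38.7% (95% exact interval 37.4% to 40.1%) lay within 30 bases of a known 3′ site, against 30.9% (30.6% to 31.3%) of the same kind above the score limit. Of new 5′ sites, 21.4% (20.3% to 22.5%) lay within 30 bases, against 16.4% (16.1% to 16.8%) above the limit. The median distance was 60 bases for new 3′ sites and 239 bases for new 5′ sites. All intervals here cover counting error only, and junctions of a gene share its reads.

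New 3′ sites peaked at a single position, 3 bases inside the known exon. That position held 495 new 3′ sites, or 9.61% (8.82% to 10.5%), against 2.83% (2.70% to 2.96%) above the limit. Among the less used of 2 or more annotated 3′ sites joined to the same 5′ site it held 5.08% (4.47% to 5.74%), measured from the most-read of them. Measured from the known partner with the most reads, it held 9.05% (8.28% to 9.88%) of new 3′ sites. The annotated sites include those of other exons, and only 16.3% lay within 30 bases, so the sets are not alike. Multiples of 3 made up 70.5% of the short distances of annotated sites and 51.5% of those of new 3′ sites. The next positions of new 3′ sites were 4 bases inside, with 232 sites, 3 bases outside, with 158, and 5 bases inside, with 126. A distance of 1 base was rare, with 8 sites inside and 5 outside.

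New 5′ sites peaked at 4 bases on either side. There were 113 sites that lengthen the exon by 4 bases, or 2.16% (1.78% to 2.59%), the same share as the 2.16% (2.03% to 2.29%) above the limit. There were 73 that shorten it by 4 bases, or 1.40% (1.10% to 1.75%), against 0.732% (0.661% to 0.809%). A distance of 3 bases, the peak for 3′ sites, held 23 new 5′ sites inside the exon and 11 outside.

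**Figure D2:**
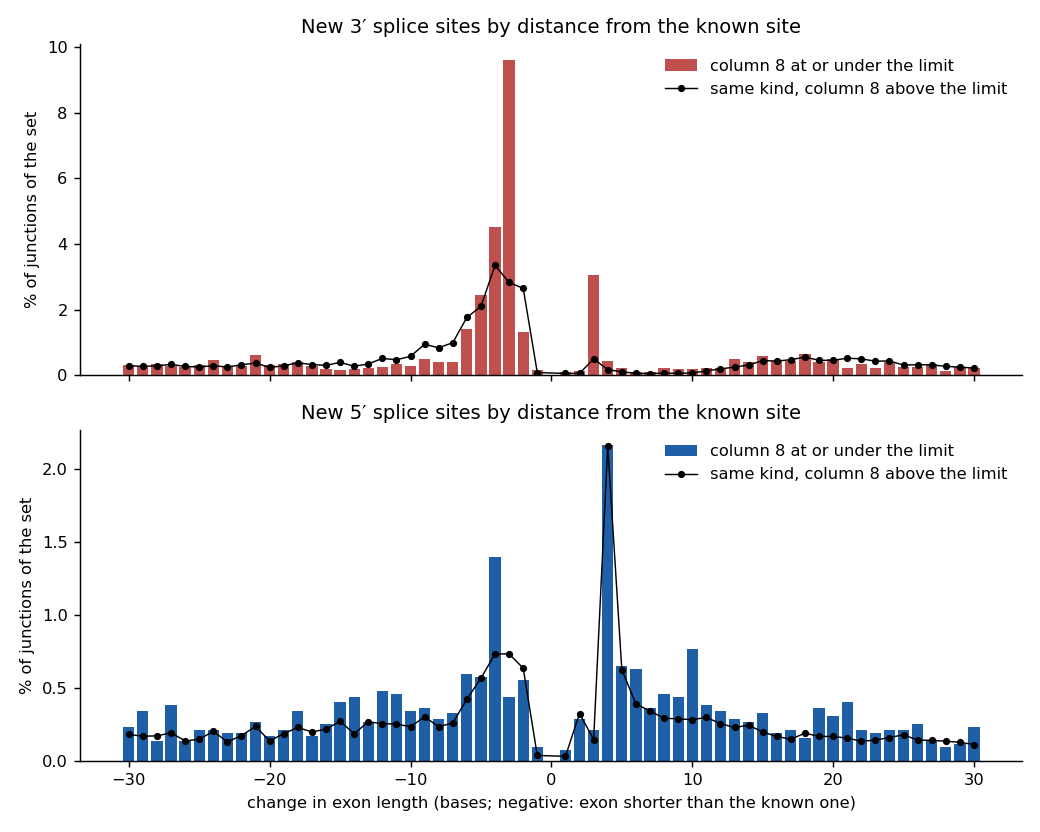
Change in exon length (bases; negative is shorter) for new 3′ sites (upper plot) and new 5′ sites (lower plot), as % of all junctions of the set; bars are the junctions at or under the score limit and black points those of the same kind above it. The red bar 3 bases inside the exon reaches 9.61% against a point at 2.83%, and the blue bar 4 bases outside the exon meets its point at 2.16%.

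The letters of the 3 bases left out went with how much the new 3′ site was used. They could be read for 471 of the 495 sites. The triplet was CAG at 251 sites, with median shares of 17.2% and 16.7% in replicates 1 and 2, and TAG at 41 sites, with 10.7% and 9.86%. It was AAG at 143 sites, with 4.41% and 4.29%, and GAG at 36 sites, with 1.39% and 1.19%. Both libraries gave the same order. A share over 20% in both libraries was found at 93 CAG sites (37.1%), 12 TAG sites (29.3%), 15 AAG sites (10.5%) and 2 GAG sites (5.56%).

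The same triplets were distributed differently above the score limit. CAG made up 53.3% (48.7% to 57.9%) of the 471 sites, against 19.2% (17.3% to 21.2%) of 1591 sites above the limit. GAG made up 7.64% (5.41% to 10.4%), against 41.9% (39.4% to 44.3%). AAG was closer, at 30.4% (26.2% to 34.7%) against 34.9% (32.5% to 37.3%). The sites above the limit had medians of 2 or 3 reads, and the part of the read number in this difference was not tested. Their median shares kept CAG and TAG (2.20% and 2.78% in replicate 1) above AAG (0.633%) and GAG (0.0996%).

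**Figure D3:**
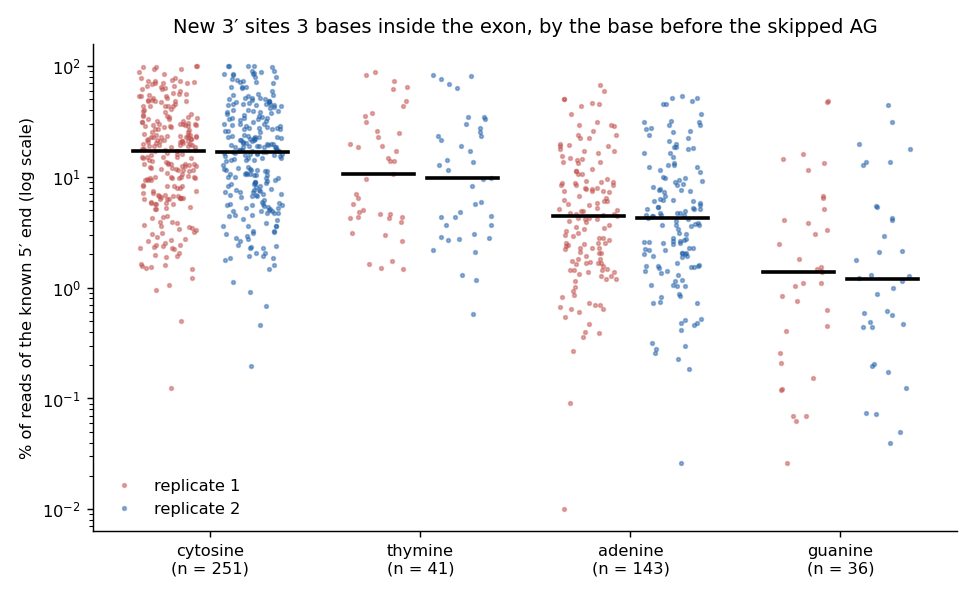
Share of the reads of the known 5′ site (%, log scale) for each of the 471 new 3′ sites that lie 3 bases inside the known exon, grouped by the base before the AG of the 3 bases left out, with replicate 1 in red and replicate 2 in blue; black lines are medians, and 1 value below 0.01% is drawn at 0.01%. The medians step down from 17.2% with cytosine to 1.39% with guanine in replicate 1, and each group spreads over more than a factor of 10.

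Single genes show that spread. Fau, which encodes a ubiquitin-like protein fused to ribosomal protein S30, leaves out TAG with 1197 and 1854 reads against 1570 and 3674 on the other junctions of its 5′ site. Its share of 43.3% and 33.5% differed by more between the libraries than that of the other most-read genes. Hnrnpab, an RNA-binding protein, also leaves out TAG, but with 177 and 180 reads against 9885 and 13522, or 1.76% and 1.31%.

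Rbm8a, a core protein of the exon junction complex, leaves out AAG with 1167 and 1345 reads against 1135 and 1255, a share of 51.2 ± 0.732%. Cfi, complement factor I of hepatocytes, also leaves out AAG, with 251 and 393 reads against 1868 and 2527, a share of 12.7 ± 1.14%. 6030468B19Rik leaves out CAG with 969 and 1351 reads against 987 and 1536, a share of 48.2 ± 1.94%. Shares thus varied widely between genes with the same triplet.

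Even the triplet with the lowest median had well-used members. Uchl5, a deubiquitinase of the proteasome, leaves out GAG with 203 and 316 reads against 218 and 389, or 48.2% and 44.8%, the highest share of any GAG site. Bex4 leaves out GAG with 296 and 531 reads against 1728 and 2437, or 14.6% and 17.9%.

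New 3′ sites that add 3 bases to the exon had higher shares than those that remove 3. Their medians were 19.8% and 20.95% in replicates 1 and 2 over 158 sites, against 9.49% and 9.16% over 495 sites. The added bases can be read only where a newer transcript holds them, which was so for 45 of the 158, and they were CAG in 34. Unlike bases left out, added bases are the letters of the known site and not of the new one. Median shares were 42.0% and 43.5% in replicates 1 and 2 at the 34 CAG sites, above those of all 158. They were 82.4% and 73.2% at 5 AAG sites, 85.3% and 78.5% at 4 TAG sites, and 100% in both at 2 GAG sites. In contrast, sites 4 bases inside the exon had medians of 2.81% and 2.95%, and sites 5 bases inside 2.51% and 2.50%.

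Among new 5′ sites 3 bases away, U2surp, a protein bound to the U2 particle of the spliceosome, had 242 and 372 reads without GTG against 115 and 202 reads, a share of 66.3 ± 2.11%. Ddx46, a helicase that helps to assemble that particle on the intron, had 87 and 156 reads without GTA against 294 and 522, a share of 22.9 ± 0.123%. Gtf3c6, a subunit of transcription factor IIIC, had 82 and 120 reads with GTT added against 277 and 358, a share of 23.97 ± 1.60%. Cnbp, a nucleic acid-binding zinc finger protein, had 73 and 144 reads against 3602 and 5913, a share of 2.18 ± 0.276%.

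New 5′ sites 4 bases away would shift a reading frame inside a coding region. Eif4a2, an RNA helicase of translation initiation, had 1082 and 1366 reads on such a site against 631 and 972, a share of 60.8 ± 3.35%, and its known site lay in the 3′ untranslated region. Prkcsh, the beta subunit of glucosidase II, had 398 and 654 reads with GTAG added against 1176 and 2136, a share of 24.4 ± 1.30%. Sub1, a transcriptional coactivator, had 91 and 193 reads against 3601 and 5917, and its known site lay in the 5′ untranslated region. Over all sites that leave out 4 bases, the letters were GTAG at 21 and GTGG at 19 of the 65 that could be read.

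Close to the known site, new sites that keep the reading frame had larger median shares, with exceptions given below. In coding sequence, the distance of new 3′ sites within 30 bases was a multiple of 3 for 784 of 1465, or 53.5% (50.9% to 56.1%), against 37.0% (36.3% to 37.8%) above the limit. In 5′ untranslated regions it was so for 46.7% (38.9% to 54.6%) of 165, against 37.2% (33.98% to 40.5%). In 3′ untranslated regions it was so for 50% (32.4% to 67.6%) of 34, against 29.96% (24.2% to 36.2%). The intervals of both regions overlap those of coding sequence and those above the limit. The part of the reading frame in the 53.5% was not tested. Of the 784 in coding sequence, 22.8% had a share of at least 20% in both libraries, against 2.79% of the 681 at other distances. Their median shares were 6.78% and 6.75% in replicates 1 and 2, against 2.53% and 2.57%. The sites 3 bases away are among these 784. Sites 6 bases inside the exon, also in frame, had medians of 2.20% and 1.97% in any zone, below the 2.81% and 2.95% of sites 4 bases inside and the 2.51% and 2.50% of sites 5 bases inside. At 31 to 300 bases the in-frame medians in coding sequence were 3.40% and 3.69%, against 3.20% and 3.31% at other distances. A share of at least 20% in both libraries was still more frequent in frame there, at 11.5% of 355 sites against 5.93% of 725.

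For new 5′ sites in coding sequence the distance was a multiple of 3 for 242 of 744, or 32.5% (29.2% to 36.0%), against 31.2% (30.1% to 32.4%) above the limit. Of the 242, 16.9% had a share of at least 20% in both libraries, against 7.37% of the 502 at other distances. The share of in-frame new 5′ sites thus lay near that above the limit. Their median shares of reads were 4.18% and 4%, against 3.17% and 3.33% at other distances. At 31 to 300 bases, 16.1% of 322 in-frame new 5′ sites had a share of at least 20% in both libraries, against 8.30% of 675 others. The medians there were 3.98% and 3.79%, against 3.39% and 3.49%. With distances of 3 bases left out, multiples of 3 made up 27.9% (25.5% to 30.4%) of short distances of new 3′ sites in any zone, against 29.1% (28.4% to 29.8%) above the limit. For new 5′ sites the same share was 29.6% (26.9% to 32.4%), against 26.8% (25.8% to 27.8%). The 2 kinds of site thus differed from the comparison in opposite directions, each with intervals that overlap.

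Sites further inside known exons could be read for letters too. Of 793 new 3′ sites at least 20 bases inside an exon, 74.5% (71.3% to 77.5%) had C before the AG and 2.77% (1.74% to 4.17%) had G, against 66.0% (65.005% to 66.9%) and 5.82% (5.36% to 6.31%) of 9607 above the limit. Of 778 new 5′ sites inside an exon, 8.23% (6.39% to 10.4%) began with the letters GTAAGT or GTGAGT on the transcript strand, against 5.55% (5.02% to 6.13%) of 6700 above the limit. Taken singly, GTAAGT began 2.44% against 1.21%, and GTGAGT 5.78% against 4.34%. GTAAGA began 2.31% against 1.78%, and GTGAGC 3.73% against 3.70%. For each of these 4 the intervals of the sets overlap. A match of letters is a description of the window and not a sign of a factor bound there.

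New 5′ sites lay mostly in annotated introns (61.8%), then in exons (29.95%), and 7.498% lay before the annotated gene without touching another gene of the same strand. Above the score limit these were 67.3%, 25.2% and 6.84%. New 3′ sites lay in exons (47.9%) and introns (47.1%) about equally, and 4.53% lay beyond the gene. Above the limit these were 43.0%, 50.3% and 5.55%, so the placement was similar in both sets. Sites more than 10000 bases from the nearest known site were few and had high median shares. These were 18.4% and 18.9% at 233 new 5′ sites and 12.2% and 13.5% at 171 new 3′ sites. Above the limit the medians at this distance were 0.382% and 0.720% for new 5′ sites, and 0.0782% and 0.284% for new 3′ sites. The far sites at or under the limit had medians of 34 and 35 reads, so a high share there does not mean many reads.

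Other readouts of the new sites did not enter the rule. In GENCODE M21, a newer annotation, 2350 of 10094 junctions that could be looked up, or 23.3% (22.5% to 24.1%), had an intron of the same length in the same gene that shares an end with a known intron, against 3.35% (3.25% to 3.46%) of the same kind above the limit. This match is by gene and length, not by coordinates. Its share was 13.1% where the new site took under 5% of the reads, 27.7% at 5% to 20%, 39.9% at 20% to 50% and 52.3% over 50%. Alad, Kel and Eif4a2 are among those without a match, and Dpy30, Ndufs8, Xpo7, Srsf7, Serbp1, Prpf19 and Rpl22l1 had one.

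Cufflinks exon models, assembled by the authors from these same libraries, had a boundary at the new site for 1431 junctions, or 13.8% (13.1% to 14.5%), against 2.73% (2.64% to 2.83%) above the limit. Where the site took under 5% of the reads this was 1.12%, the same as the 1.13% above the limit. It was 13.9% against 9.69% at 5% to 20%, and 39.3% against 20.9% at 20% to 50%. Over 50% it was 57.2% against 24.8%. A deposited contig of transcribed sequence covered the exon base next to the new site for 95.8% (95.4% to 96.2%), against 90.8% (90.6% to 91.0%). Models and contigs come from the same reads and are not independent evidence of the sites.

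**Figure D4:**
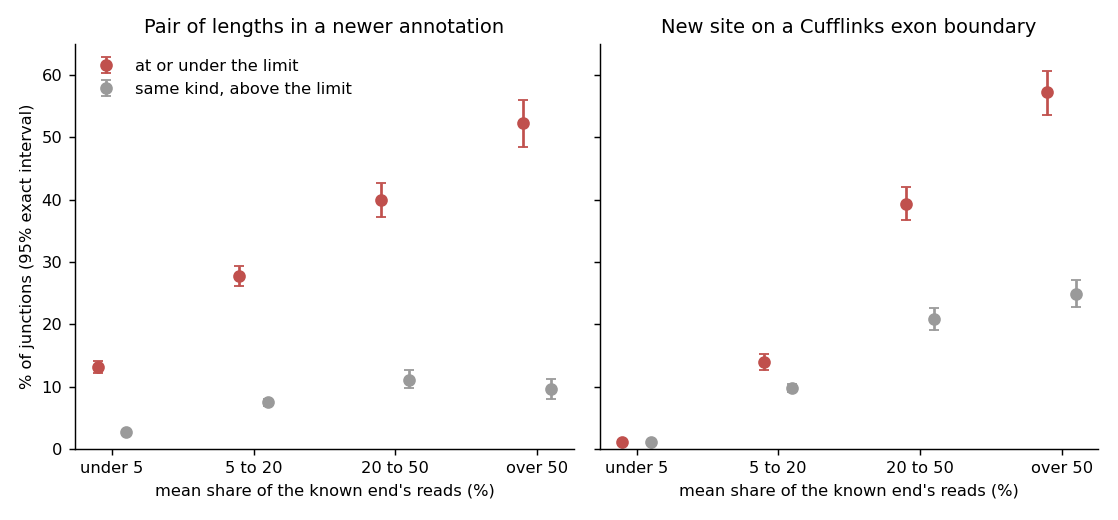
Share of junctions (%, with 95% exact intervals) whose pair of intron lengths is in GENCODE M21 (left) and whose new site is a Cufflinks exon boundary (right), by the mean share of the known site's reads, for junctions at or under the score limit (red) and the same kind above it (grey). The red points climb from 13.1% to 52.3% on the left and from 1.12% to 57.2% on the right. The grey points start at 2.69% and 1.13% and end at 9.55% and 24.8%.

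Some new sites came in pairs that could border an exon the older annotation lacks. Such pairs are called exons below, but they rest on position alone, and whether the same RNA held both sides was not tested. Combinations of the same sites count separately. In Gmpr, exons of 144, 153 and 181 bases share a new 3′ site. A new 3′ site was followed within 500 bases by a new 5′ site of the same gene, with no annotated exon between, for 899 exons in 722 genes. They had a median length of 104 bases, with quartiles at 70 and 151.5 bases, and 36.4% (33.2% to 39.6%) had a length that is a multiple of 3. Reads on both sides lay within 2-fold of each other for 651 of 926 pairs. Both sides had a match in the newer annotation for 279 of the 878 exons that could be looked up, or 31.8%.

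The best covered was an exon of 193 bases in Ctbp1, a transcriptional corepressor (chr5:33612091-33612283), with 718 and 1471 reads into it and 868 and 1569 out of it in replicates 1 and 2. It took 84.2% and 84.5% of the reads on the side of entry. Hnrnpc, an RNA-binding protein, had an exon of 26 bases with 156 and 306 reads in and 1081 and 1424 out. Cd47, the surface protein that guards cells against phagocytosis, had one of 25 bases with 602 and 909 reads in and 312 and 562 out.

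Gmpr, a guanosine monophosphate reductase, had an exon of 144 bases (chr13:45615401-45615544) with 509 and 959 reads in and 323 and 512 out, and neither side was matched in the newer annotation. Myl6, a myosin light chain, had one of 45 bases with 619 and 517 reads in and 453 and 415 out, so that the library with more reads in all had fewer here. Its share on the side of entry was 59.0% in replicate 1 and 46.2% in replicate 2. These genes were picked by read number after the values were seen.

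**Figure D5:**
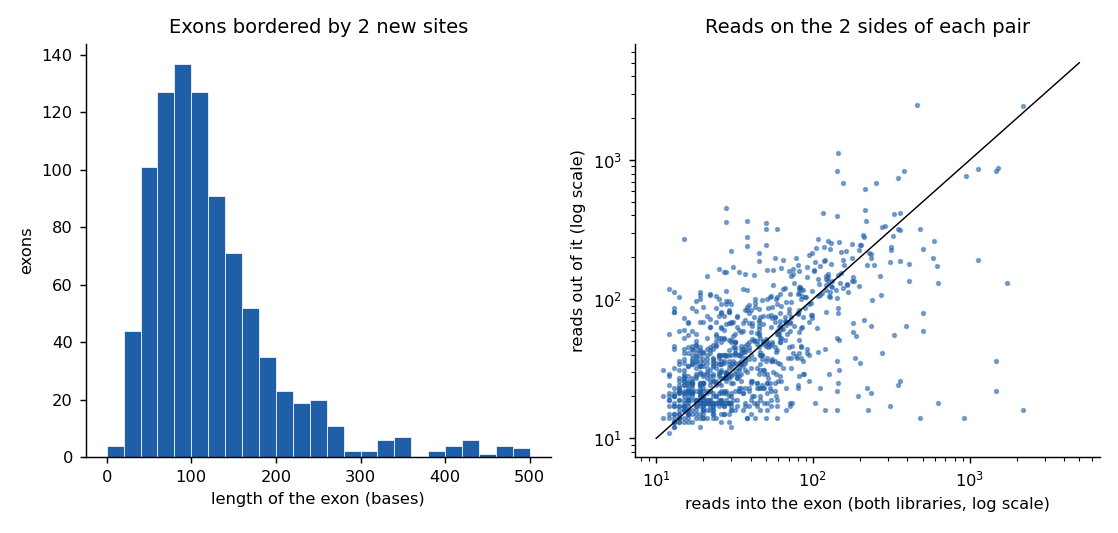
Left, lengths in bases of the 899 possible exons bordered by a new 3′ and a new 5′ site. Right, reads into and out of the exon over both libraries (log scales) for each of 926 pairs, with the line of equal reads. Most lengths lie near the median of 104 bases, and 651 pairs lie within 2-fold of the line.

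The junctions fell in 4839 genes, of which 2464 held 1 and 400 held 5 or more. The most, 26, were in ENSMUSG00000091793, for which no symbol was matched. Kel and Rnf123 followed with 19 each, then Ppp2r3c, a phosphatase subunit, with 17, and Slc25a37, the mitochondrial iron importer, Ermap, an erythroid membrane protein, and the annexin Anxa11 with 16 each. Brpf3 and Afp had 15 each. Host genes had median levels of 13.4 and 15.1 TPM in replicates 1 and 2, and 58.7% reached 10 TPM in both. The score follows the reads, and the part of the level in these numbers was not tested.

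By list, 34 of 37 erythroid genes found in the annotation (91.9%) held 223 new-site junctions, with median shares of 0.574% and 0.586% in replicates 1 and 2, and 2 over 50% in both. In the hepatocyte list, 38 of 48 genes (79.2%) held 145, with medians of 0.133% and 0.159% and 2 over 50%. Ribosomal and translation genes held 200 junctions in 97 of 483 genes (20.1%), with medians of 1.03% and 0.841% and 4 over 50%. Splicing genes held 270 in 97 of 181 genes (53.6%), with medians of 3.36% and 3.37% and 10 over 50%. The erythroid and hepatocyte lists were named gene by gene. The ribosomal and splicing lists hold every symbol with given first letters, such as Rpl, Rps, Rbm or Ddx, with any pseudogenes or silent genes so named. The percentages of genes are thus not comparable between the lists. Median shares are not comparable either. No new-site junction had under 11 reads, so low shares could be found only at known sites with many reads. The part of the gene level in these medians was not tested. Of all 55342 gene symbols, pseudogenes and silent genes included, 4732 (8.55%) held such junctions, with medians of 4.44% and 4.46% and 607 of 10124 over 50%. Rplp2, a protein of the ribosomal stalk, leaves out 19 bases with 914 and 1708 reads against 15589 and 22988, a share of 6.23 ± 0.974%.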

How the data were processed

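Polyadenylated RNA of 2 libraries from embryonic liver, replicates 1 and 2 per the labels, was measured, and the deposited files were used as they stand. The authors deposited the junction counts, in whole reads on mm9, for both libraries in 1 list; the fields R1 and R2 of the junction's name were taken as the reads of replicates 1 and 2 from the letters alone, since no header says so, and every value per replicate rests on this. The score is another deposited field of that list, which no source used here describes; it was taken as a measure of irreproducibility, where low is better. The TPM values were made by the authors on mm10 with GENCODE M4, per the file headers. Neither aligner nor junction caller is named in the sources. A longer overhang needed by the aligner, or a known-junction list given to it, would change the reads on new sites, and neither is recorded.

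Ends were compared with ENSEMBL exons of mm9 on the same strand. The distance of a new site is to the nearest known boundary of the same kind. A share is the junction's reads over those of all listed junctions of the strand that use the same known site, per library. Letters come from GENCODE M21 transcripts, by gene and by exon and intron lengths, with no conversion of coordinates; introns were not read, as no mm9 genome was used. Intervals are exact Clopper-Pearson intervals at 95%. No test was made, since the reads chose the members.

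Genes named are, for each kind of site, the 8 with the most reads, the 6 with the highest share at known sites of at least 100 reads per library, the 4 most-read at 3 bases (and new 5′ sites at 4 bases), the 2 most-read of 4 host lists, and 3 on either side of the score limit. Some of these are not reported here. The members and lists were chosen with earlier results of these data known. The classification was checked on 400 simulated junctions, all recovered. Scripts ran in Python 3.11.15 with pandas 2.3.3, numpy 2.4.6, matplotlib 3.10.9 and scipy 1.17.1.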

Additional observations from a re-analysis of the deposited data

How the results depend on the processing

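The number of junctions, 10377, was 4063 with a score of at most 0.001 and 22731 with at most 0.1. With these 2 limits the median reads were 66 and 13 (28 as reported), the median share of reads, averaged over the libraries, 9.52% and 2.54% (4.72%), the share within 30 bases 31.9% and 27.9% (29.98%), and the multiples of 3 among short distances 51.1% and 39.6% (44.4%). Leaving out either replicate gave median reads of 11 to 18, since a library then counts alone, and median shares of 4.56% to 4.59%. The share within 30 bases was 28.5% when only boundaries that flank an intron counted as known, and 26.6% when measured from the known partner with the most reads. Multiples of 3 made up 40.9% of distances up to 100 bases. The median share was 4.96% with only the annotated junctions and the new junction itself in the denominator, and 2.12% as a ratio of summed reads. Without the junctions that share counts with another, a choice made after seeing the data, it was 4.69%. The other 26 values lay within the reported error or within 1.5-fold, among them all those for the share of new 3′ sites and for at least 10 reads, which removed no junction. No paired analysis was possible because the 2 libraries form 1 group. Depth limits the list: no junction with under 11 reads passed the score, so sites with fewer reads are not represented. Sites of low share are listed only where the known site had many reads.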
